A study of Mus musculus with 12 samples.

Results

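Transcripts of 10 small nucleolar RNA (snoRNA) host genes, Gas5, Snhg1, Snhg3, Snhg4, Snhg5, Snhg6, Snhg8, Snhg12, Snhg15 and Epb41l4aos, were followed in mouse embryonic stem (ES) cells under mTOR inhibition. Members were the rows carrying these symbols, 10 of 54446 gene identifiers, and all 10 passed the filter on low values (an average over the libraries of 1 TPM or more), which left 15727 genes to test. TPM, the deposited unit, is a share of a library's RNA per unit of transcript length. The study reports, with spike-in normalization, that global transcription decreased under mTOR inhibition in wild-type and Dnmt3a/b knockout cells. Rises and falls below are changes of the share, and RNA per cell was not measured here. The data were 12 RNA-seq libraries, 2 for each of 6 groups. KH cells carried the wild-type Dnmt3a and Dnmt3b genes, and DNMT3ABKO cells lacked both de novo DNA methyltransferases. Each line was collected untreated (0 h) and after 72 and 144 h in the presence of INK128, which blocks the kinase mTOR (mTORi). The labels write E14 before both line names, whereas the study's methods give KH2 as the wild-type line grown beside the knockout. By those methods both lines grew on mitotically inactive fibroblast feeders, and RNA came from living single cells taken by sorting. Each genotype was 1 line and no untreated culture was sampled at 72 or 144 h, so mTORi cannot be told apart from time in culture, nor genotype from line. The study states in general that experiments were repeated independently and that a replicate's time points were handled side by side. The labels do not tie these libraries to cultures. The p-values therefore measure spread between libraries of the same group, pooled for each gene over all 6 groups.

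SnoRNA host genes carry snoRNAs in their introns. Splicing frees the intron, whose ends are trimmed back to the snoRNA, a guide for methylation or pseudouridylation of ribosomal RNA, while the spliced exons are exported. In noncoding hosts the exons hold only short reading frames, so a ribosome that reads them stops early and the transcript is destroyed by nonsense-mediated decay (NMD). Many hosts begin with a terminal oligopyrimidine (TOP) tract, a C followed by an unbroken run of pyrimidines, which also begins the mRNAs of ribosomal proteins. mTOR complex 1 controls the translation of TOP mRNAs, partly through the binding protein LARP1. Gas5 was named for its accumulation in growth-arrested cells.

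The 10 genes were listed as hosts with TOP starts, so a higher share with a tract than over all genes follows in part from that choice. The start of a transcript is where the TOP tract would lie, so the annotated starts are shown first. RefSeq promoter sequences (GRCm38.p6) were matched for 7 of the 10 genes. A start tract was counted when a C within 5 bases of the annotated start was followed by at least 4 bases that were C or T, on the transcribed strand only. By this measure 4 of the 7 genes had a tract, namely Gas5 at the second of its annotated starts, Snhg3, Snhg8 and Snhg12, against 21.2% of 27025 genes and 18.4% of 32851 promoters. Snhg1, Snhg5 and Snhg15 had none in that window. Each window below runs from 30 bases before to 30 bases from the annotated start, with the tract in capitals.
Gas5 (chr1:161035136-161035195, plus strand): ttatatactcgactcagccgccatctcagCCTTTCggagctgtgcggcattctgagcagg
Snhg3 (chr4:132353657-132353716, minus strand): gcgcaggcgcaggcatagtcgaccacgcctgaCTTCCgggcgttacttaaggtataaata
Snhg8 (chr3:123508307-123508366, minus strand): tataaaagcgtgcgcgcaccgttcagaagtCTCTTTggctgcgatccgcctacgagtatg
Snhg12 (chr4:132308648-132308707, plus strand): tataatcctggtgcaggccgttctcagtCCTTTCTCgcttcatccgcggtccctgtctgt
Snhg1 (chr19:8723457-8723516, plus strand): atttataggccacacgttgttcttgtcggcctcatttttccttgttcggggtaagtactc
Snhg5 (chr9:88522868-88522927, minus strand): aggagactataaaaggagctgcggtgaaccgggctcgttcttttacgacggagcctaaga
Snhg15 (chr11:6528731-6528790, minus strand): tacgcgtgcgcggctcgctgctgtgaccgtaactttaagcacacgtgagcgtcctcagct

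Transcript models of GENCODE M21 were read for the same letters at their first base. Of 78 models of the host genes, 12 (15.4%) began with a C and at least 4 further pyrimidines, against 2.02% of 141767 models of all genes. They belonged to Gas5 (5 models), Snhg12 (3), and Snhg3, Snhg5, Snhg6 and Snhg8 (1 each), and none to Snhg1, Snhg15 or Epb41l4aos. Models of 1 gene share their sequence and are not independent, and the genes were listed for TOP starts. The first 30 bases of the 3 models below add Snhg5 and Snhg6 to the genes with a tract, and place that of Snhg12 at the first base of a model.
Snhg5-204: CTTTTacgacggagcctaagatattctttg
Snhg6-203: CTTTCTCggcagcgccgtagagcgcgagca
Snhg12-204: CTTTCTCgcttcatccgcggtccctgtctg

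Before the results, 1 library and the cell makeup need to be stated. DNMT3ABKO 0 h replicate 1 stood apart: its r with the other DNMT3ABKO 0 h library was 0.985 over the tested genes, against 0.993 to 0.996 in the other groups, and the top row, Gm26917, took 12.5% of its TPM against 7.59 to 10.2% elsewhere. Host calls, list values and named genes of DNMT3ABKO that changed without it are given both ways. Dnmt3a ran from 54.7 to 144 TPM in KH and from 7.35 to 21.9 TPM in DNMT3ABKO libraries, and Dnmt3b from 142 to 258 and from 12.7 to 27.5 TPM. The summed level of 25 fibroblast markers fell in KH from 3334–3646 TPM without mTORi to 613–706 TPM after 144 h. In DNMT3ABKO it fell from 3617–3942 to 472–492 TPM. Fn1 alone made up 526 and 440 TPM of the KH sums at 144 h, against 537 and 583 TPM at 0 h. In DNMT3ABKO Fn1 went from 501 and 717 TPM to 292 and 283 TPM. The sum of 12 macrophage markers fell from 320–346 to 22.1–22.5 TPM in KH and from 280–304 to 38.9–40.2 TPM in DNMT3ABKO. Of 10 ES cell markers, none was below 1 TPM in any group, and their sum rose from 4325–4606 to 6764–6872 TPM in KH and from 4363–4410 to 6815–6851 TPM in DNMT3ABKO. By gene, 9 were called higher and 0 lower in KH at 144 h, and 8 higher and 1 lower in DNMT3ABKO. Their DNMT3ABKO median at 144 h was 0.62, or 0.56 without DNMT3ABKO 0 h replicate 1. At 144 h against 0 h, 22 and 23 of the 24 fibroblast markers tested and 12 and 11 of 12 macrophage markers were called lower in KH and DNMT3ABKO, and 1 macrophage marker was at 0 in KH at 144 h. Twist1, the tested fibroblast marker not called lower in DNMT3ABKO, was called higher there (0.46). It read 4.42 and 6.43 TPM at 0 h and 7.66 and 7.75 TPM at 144 h in that line. The call on Twist1 did not hold without DNMT3ABKO 0 h replicate 1. In each comparison with 0 h most feeder markers therefore moved with the time of mTORi. Between the lines, 11 of 12 macrophage markers were called lower in DNMT3ABKO at 72 h (median -0.60) and 7 higher at 144 h (median 0.47), against 1 higher and 4 lower, then 4 higher and 1 lower, of the 24 fibroblast markers. The part of these markers in the host gene results was not tested. In bulk RNA, fewer cells of a type cannot be told apart from less RNA per cell.

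The host genes lay close together in abundance and were expressed in every library. Gas5 was the highest of the 10 in all 12 libraries and ran from 387 to 633 TPM. In all 6 groups the next 4 by mean were Snhg3, Snhg1, Snhg4 and Snhg12, in that order. The libraries of Snhg3 and Snhg1 overlapped in KH at 144 h (means 287 ± 17.6 and 286 ± 16.9 TPM, SD, n = 2) and in DNMT3ABKO at 0 h, and in the other 4 groups both Snhg3 libraries lay above both of Snhg1. The other 5 genes, Snhg5, Snhg8, Snhg15, Snhg6 and Epb41l4aos, stayed between 66.0 and 149 TPM and changed places from group to group. Over the 12 libraries the highest value of a gene was 1.21 times its lowest for Snhg15 and 1.68 times for Snhg3, which marked the ends of the range. Together the 10 genes made up 0.182 to 0.230% of a group's TPM. Their sum was 2008 ± 7.71, 2098 ± 27.6 and 1823 ± 87.9 TPM at 0, 72 and 144 h in KH and 1844 ± 172, 2295 ± 18.4 and 2009 ± 80.7 TPM in DNMT3ABKO (SD, n = 2), so that in each line the 72 h mean was the highest. In KH this rested on Gas5, since the other 9 genes summed to 1582, 1546 and 1416 TPM, highest at 0 h. In DNMT3ABKO the 9 summed to 1452, 1681 and 1516 TPM, highest at 72 h.

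**Figure D1:**
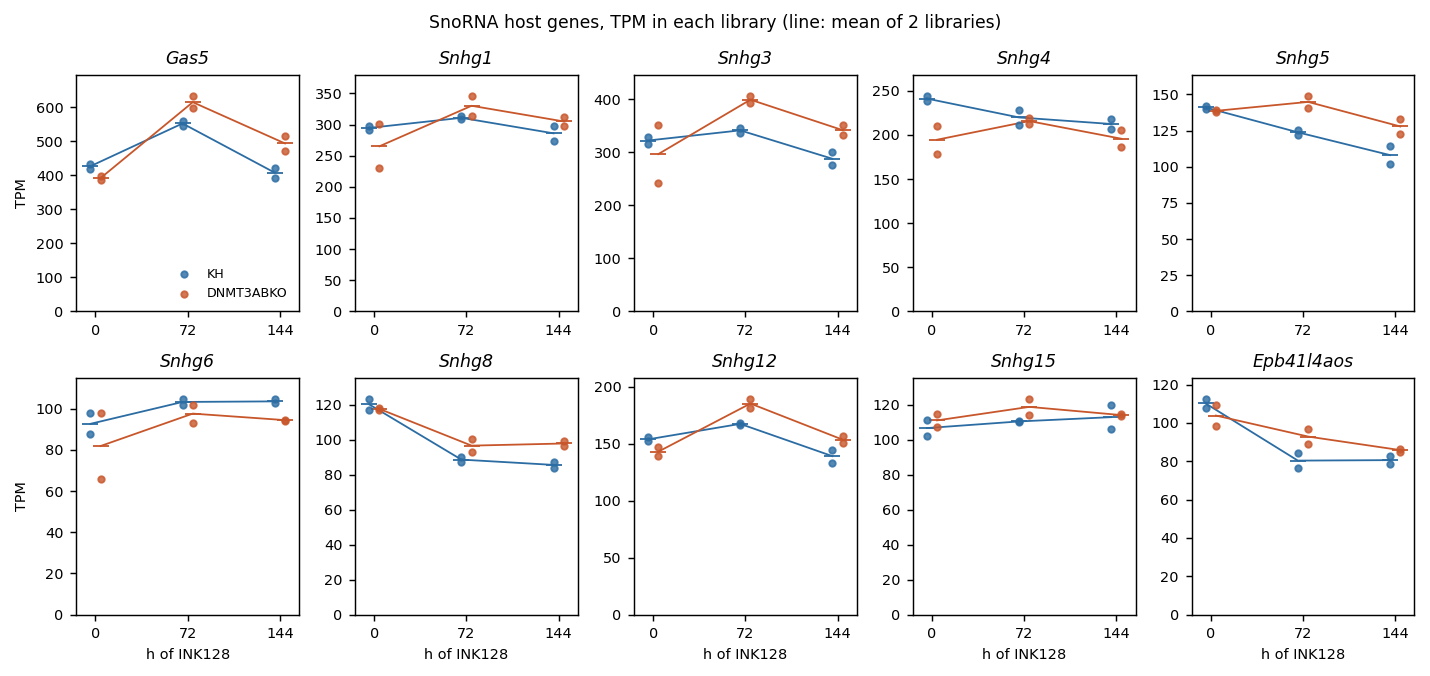
TPM (y axis, from 0, own scale per gene) of each host gene against hours of INK128 (x axis) in KH (blue) and DNMT3ABKO (orange); each point is 1 library and each line joins the means of 2. Gas5 peaked at 72 h in both lines, Snhg8 and Epb41l4aos were lower at 72 and 144 h than at 0 h, and 1 DNMT3ABKO 0 h library lay low for Snhg1, Snhg3, Snhg4 and Snhg6.

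The first question was how the hosts responded to 72 h of mTORi. In KH cells Gas5 rose, Snhg8 and Epb41l4aos fell, and the other 7 did not pass the threshold (limma on log2(TPM + 1), Benjamini-Hochberg adjusted p under 0.05 over all 15727 genes, as for every call that follows). That is 3 of 10 members, where 47.8% of all tested genes were called, 28.3% higher and 19.5% lower. In DNMT3ABKO cells Gas5, Snhg3, Snhg12 and Snhg1 rose and Snhg8 fell, 5 of 10 members where 56.0% of all genes were called, 34.3% higher and 21.6% lower. The members' median log2 difference was 0.064 in KH against 0.077 over all genes, and 0.21 in DNMT3ABKO against 0.12, or 0.094 against 0.042 without DNMT3ABKO 0 h replicate 1. Neither share of called members was above that of all genes. After rescaling by median ratios the median of all genes moved from 0.12 to -0.0039 in DNMT3ABKO at 72 h, so the values below include a common shift of about that size. On that scale the split of members was 3 higher and 2 lower in DNMT3ABKO, since Snhg1 (0.19, adjusted p = 0.0583) dropped out and Epb41l4aos (-0.30, adjusted p = 0.0282) came in, and 1 higher and 4 lower in KH, where Snhg4 (-0.25, adjusted p = 0.0111) and Snhg5 (-0.30, adjusted p = 0.00721) joined the genes that fell. On the same scale 28.5% of all genes were called higher and 30.2% lower in DNMT3ABKO, and 24.1% higher and 27.9% lower in KH.

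Gas5 (ENSMUSG00000053332.13, chromosome 1, 161034422 to 161038539, plus strand) is the host of a cluster of C/D box snoRNAs. Its KH libraries read 433 and 419.5 TPM at 0 h, 544 and 561 TPM at 72 h and 393 and 422 TPM at 144 h. The DNMT3ABKO libraries read 387 and 397 TPM at 0 h, 633 and 597 TPM at 72 h and 471 and 516 TPM at 144 h. In both lines the 72 h libraries lay above all others of that line, and in DNMT3ABKO the 144 h libraries also lay above both 0 h libraries, whereas in KH the 0 and 144 h libraries overlapped. Against 0 h, the 72 h log2 difference was 0.37 (SE 0.068, adjusted p = 0.00148) in KH and 0.65 (SE 0.068, adjusted p = 3.21e-05) in DNMT3ABKO, and both remained called without any 1 library. At 144 h it was -0.066 (adjusted p = 0.445) in KH and 0.33 (SE 0.068, adjusted p = 0.00197) in DNMT3ABKO.

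Snhg8 (ENSMUSG00000104960.1, chromosome 3, 123507552 to 123508404, minus strand) and Epb41l4aos (ENSMUSG00000087590.2) were the hosts that fell with mTORi in both lines. Snhg8 hosts an H/ACA snoRNA, and Epb41l4aos lies antisense to the start of a gene for a band 4.1-like membrane protein. For Snhg8 the KH libraries read 123 and 117 TPM at 0 h, 89.9 and 87.5 TPM at 72 h and 87.6 and 83.7 TPM at 144 h. The DNMT3ABKO libraries read 118 and 117 TPM, then 93.1 and 100.3 TPM, then 99.2 and 96.6 TPM. Both treated groups of each line lay below both of its 0 h libraries, with no overlap. The log2 differences from 0 h in Snhg8 were -0.44 at 72 h (SE 0.062, adjusted p = 3.49e-04) and -0.49 at 144 h (adjusted p = 1.30e-04) in KH, and -0.28 (adjusted p = 0.00334) and -0.26 (adjusted p = 0.00446) in DNMT3ABKO. All 4 remained called without any 1 library, and the 2 in DNMT3ABKO were lost (adjusted p = 0.0687 and 0.0769) when the spread was taken from the compared groups alone.

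Epb41l4aos read 112 and 108 TPM in the KH libraries at 0 h, 84.1 and 76.5 TPM at 72 h and 78.5 and 82.6 TPM at 144 h. In DNMT3ABKO it read 109 and 98.4 TPM, then 88.8 and 96.9 TPM, then 85.0 and 86.5 TPM. The treated KH libraries thus sat well under the untreated ones, while in DNMT3ABKO the nearest 0 and 72 h libraries were almost level. Epb41l4aos differed from 0 h by -0.45 on the log2 scale (SE 0.077) at both 72 h (adjusted p = 0.00105) and 144 h (adjusted p = 8.89e-04) in KH. In DNMT3ABKO the difference was -0.16 (adjusted p = 0.106) at 72 h and -0.27 (adjusted p = 0.0127) at 144 h. The DNMT3ABKO call was lost without DNMT3ABKO 0 h replicate 1 (-0.20, adjusted p = 0.0563) or DNMT3ABKO 144 h replicate 1 (-0.26, adjusted p = 0.0639).

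Snhg12 (ENSMUSG00000086290.9, chromosome 4, 132308623 to 132311024, plus strand), host of Snora16a, Snora44, Snora61 and Snord99, followed the course of Gas5 at a lower level. It read 155.5 and 152 TPM, then 167 and 168 TPM, then 133 and 145 TPM in KH, and 139 and 147 TPM, then 181.5 and 189 TPM, then 151 and 156 TPM in DNMT3ABKO. In each line the 72 h libraries were the highest. The 72 h difference was 0.37 (SE 0.062, adjusted p = 6.74e-04) in DNMT3ABKO, and 0.12 (adjusted p = 0.135) in KH.

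Snhg3 (ENSMUSG00000085241.7, chromosome 4, 132348014 to 132353686, minus strand) and Snhg1 (ENSMUSG00000108414.1, chromosome 19, 8723475 to 8726443, plus strand) rose in DNMT3ABKO at 72 h, by an amount that depended on the untreated library that stood apart. Snhg3, which holds the H/ACA snoRNAs Snora73a and Snora73b, read 241 and 351 TPM at 0 h, 406 and 392 TPM at 72 h and 332 and 351 TPM at 144 h in DNMT3ABKO. The KH libraries read 316 and 328 TPM, then 337 and 345 TPM, then 275 and 299.9 TPM. Snhg1, host of a series of C/D box snoRNAs, read 229.6 and 300.5 TPM, then 346 and 315 TPM, then 298 and 312 TPM in DNMT3ABKO, and 291 and 298 TPM, then 308 and 313 TPM, then 274 and 298 TPM in KH. The lower value of each DNMT3ABKO 0 h pair came from replicate 1, and both 72 h libraries exceeded both 0 h libraries. The log2 difference at 72 h was 0.45 (SE 0.14, adjusted p = 0.0176) for Snhg3 and 0.33 (SE 0.11, adjusted p = 0.0279) for Snhg1. Without DNMT3ABKO 0 h replicate 1 it was 0.18 for Snhg3 (adjusted p = 0.0447) and 0.13 for Snhg1 (adjusted p = 0.152), and without replicate 2 it was 0.72 and 0.52. The Snhg3 call was also lost without DNMT3ABKO 72 h replicate 1 (adjusted p = 0.0814) or replicate 2 (adjusted p = 0.0564), and that of Snhg1 without 72 h replicate 1 (adjusted p = 0.160). In KH neither gene passed the threshold at 72 h (0.083 and 0.077). The SE there was the same as in DNMT3ABKO, because it includes the spread of the DNMT3ABKO 0 h pair.

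Snhg5 (ENSMUSG00000097195.9, chromosome 9, 88521050 to 88522929, minus strand), host of the C/D box snoRNAs Snord50a and Snord50b, fell over 144 h in KH. Its KH libraries read 139.9 and 142 TPM at 0 h, 125 and 122 TPM at 72 h and 102 and 114 TPM at 144 h, with each time point below the one before. The DNMT3ABKO libraries read 138 and 139 TPM, then 141 and 149 TPM, then 123 and 133 TPM, so that the 72 h pair was the highest. In KH the difference from 0 h was -0.19 (adjusted p = 0.0507) at 72 h, on the edge of the threshold, and -0.38 (SE 0.070, adjusted p = 0.00124) at 144 h. The 72 h value passed without either KH 144 h library or either DNMT3ABKO 0 h library (adjusted p from 0.0317 to 0.0467). In DNMT3ABKO the differences were 0.062 and -0.12, and neither was called.

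The remaining 3 hosts gave no call against 0 h in either line. Snhg4 (ENSMUSG00000097769.7, chromosome 18, 35553371 to 35558316, plus strand) read 244 and 238 TPM, then 211 and 229 TPM, then 207 and 218 TPM in KH, with all treated libraries below the untreated ones. In DNMT3ABKO it read 179 and 210.4 TPM, then 212.5 and 219 TPM, then 186 and 206 TPM, where the groups at 0 and 144 h overlapped. Snhg6 (ENSMUSG00000098234.7, chromosome 1, 9941959 to 9944118, minus strand), host of Snord87, read 87.6 and 97.7 TPM, then 102 and 105 TPM, then 105 and 103 TPM in KH, and 66.0 and 97.7 TPM, then 93.2 and 102 TPM, then 94.3 and 94.7 TPM in DNMT3ABKO. Its low value of 66.0 TPM was again DNMT3ABKO 0 h replicate 1, and the SE of 0.14 was the largest of the 10. Snhg15 (ENSMUSG00000085156.7, chromosome 11, 6525591 to 6528760, minus strand) was the steadiest host, from 102 to 123 TPM over all libraries, and its differences from 0 h were 0.051 and 0.080 in KH and 0.096 and 0.039 in DNMT3ABKO.

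**Figure D2:**
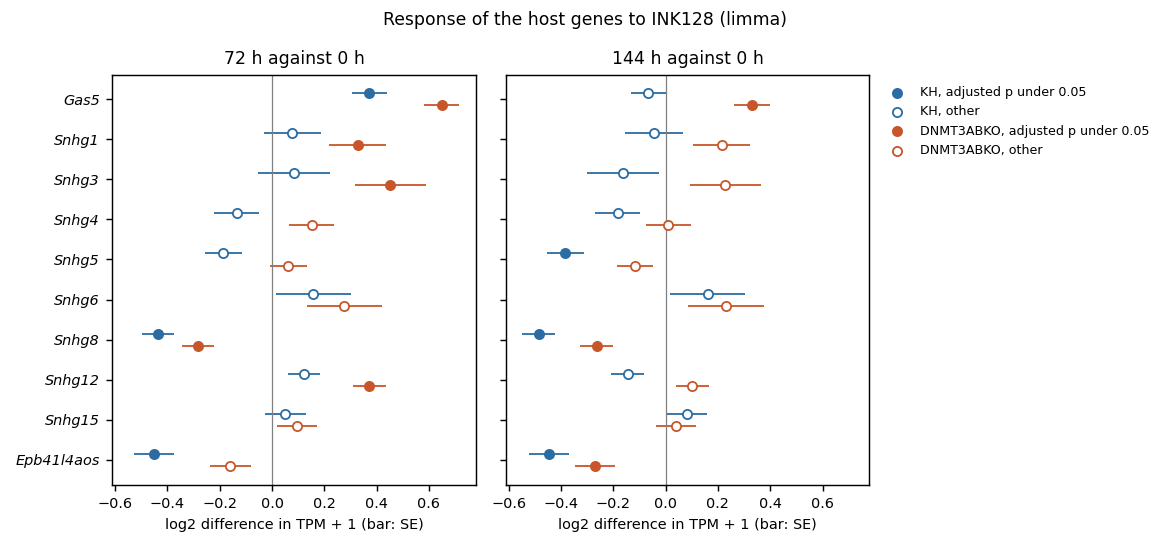
Log2 difference in TPM + 1 (x axis, bars are SE) of each host gene at 72 h (left) and 144 h (right) against 0 h in KH (blue) and DNMT3ABKO (orange); filled points passed the threshold. Gas5 lay to the right at 72 h (0.37 and 0.65) and Snhg8 to the left in all 4 comparisons (-0.49 to -0.26).

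At 144 h of mTORi no host was called higher in KH, and Snhg8, Epb41l4aos and Snhg5 were called lower, 3 of 10 where 51.3% of all genes were called, 27.4% higher and 23.9% lower. In DNMT3ABKO Gas5 was called higher and Snhg8 and Epb41l4aos lower, 3 of 10 where 57.6% of all genes were called, 31.4% higher and 26.2% lower. The members' median was -0.15 in KH against 0.049 over all genes, and 0.071 in DNMT3ABKO against 0.054, or -0.045 against -0.014 without DNMT3ABKO 0 h replicate 1. Without either DNMT3ABKO 0 h library the KH count was 6, all lower, because Snhg3, Snhg4 and Snhg12 passed as well (adjusted p from 0.0272 to 0.0360) with the same log2 differences, and 60.0% of all genes were called in those fits, 32.5% higher and 27.5% lower. For DNMT3ABKO the count was 6 without DNMT3ABKO 0 h replicate 2, with Snhg1, Snhg3 and Snhg6 added, where 63.3% of all genes were called, and 2 without replicate 1, where 56.1% were.

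Between 72 and 144 h the hosts called in the main fit were Gas5 and Snhg12, both lower. Their 72 h libraries were the highest of each line, so lower values at 144 h follow from that. In KH Gas5 fell by 0.44 on the log2 scale (adjusted p = 0.00142) and Snhg12 by 0.27 (adjusted p = 0.0127), 2 of 10 where 22.9% of all genes were called, 7.24% higher and 15.6% lower. In DNMT3ABKO Gas5 fell by 0.32 (adjusted p = 0.00621) and Snhg12 by 0.27 (adjusted p = 0.00968), 2 of 10 where 27.3% of all genes were called, 8.81% higher and 18.5% lower. No host was called higher in either line, and the medians were -0.086 and -0.13 against -0.041 and -0.064 over all genes. The KH call on Snhg12 was lost without KH 72 h replicate 1, KH 72 h replicate 2 or KH 144 h replicate 1 (adjusted p = 0.0724, 0.0825 and 0.123). In DNMT3ABKO the Gas5 call was lost without 72 h replicate 1 or 144 h replicate 1 (0.0653 and 0.0676), and that of Snhg12 without 72 h replicate 2 or 144 h replicate 1 (0.0807 and 0.0768). In KH the count was 4 without either DNMT3ABKO 0 h library, when Snhg3 and Snhg5 passed and 32.3% of all genes were called. In DNMT3ABKO it was 3 without either of them, when Snhg3 passed and 37.1% of all genes were called.

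The next question was whether the lines differed at each time. At 0 h no host was called between DNMT3ABKO and KH, where 9.06% of all genes were called (4.92% higher, 4.14% lower). The unadjusted p was under 0.05 for 1 host, Snhg4 (-0.31, adjusted p = 0.0507, or 0.0439 with a replicate block), and for 3785 of all 15727 genes. Without DNMT3ABKO 0 h replicate 2 there were 4 calls, Snhg1, Snhg3, Snhg4 and Snhg6, all lower in DNMT3ABKO, in a fit that called 24.1% of all genes lower and 7.90% higher. Without replicate 1 there were none, where 8.62% of all genes were called. At 72 h none of the 10 was called, where 19.3% of all genes were (9.26% higher, 10% lower). The unadjusted p was under 0.05 for 4 hosts and for 5125 of all 15727 genes, and Snhg5 had the lowest adjusted p of the hosts (0.22, adjusted p = 0.05004). When the spread came from the 2 compared groups alone, Gas5, Snhg3, Snhg5 and Snhg12 were called higher in DNMT3ABKO at 72 h. The share of all genes called in that fit is not given here. Without either DNMT3ABKO 0 h library Snhg3, Snhg5 and Epb41l4aos were called, as were 29.0% of all genes, and without either KH 144 h library Snhg5 was (adjusted p = 0.0492 and 0.0493).

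At 144 h Gas5 (0.27, adjusted p = 0.0140), Snhg5 (0.24, adjusted p = 0.0291) and Snhg8 (0.19, adjusted p = 0.0455) were higher in DNMT3ABKO, 3 of 10 where 26.5% of all genes were called, 11% higher and 15.5% lower. For these 3 hosts both DNMT3ABKO libraries lay above both KH libraries, as they did for the uncalled Snhg1, Snhg3, Snhg12 and Epb41l4aos. For the uncalled Snhg4 and Snhg6 they lay below. The share of all genes so separated was not counted. The Gas5 call was lost without KH 144 h replicate 1 or DNMT3ABKO 144 h replicate 2 (both adjusted p = 0.122), and that of Snhg5 without KH 144 h replicate 1 (0.227), DNMT3ABKO 144 h replicate 1 (0.0520) or replicate 2 (0.193). The Snhg8 call was lost without any 1 of the 8 libraries taken at 72 and 144 h (adjusted p from 0.0585 to 0.232), and with a replicate block (adjusted p = 0.0814). Another host, Snhg3, passed without either DNMT3ABKO 0 h library (0.25, adjusted p = 0.00683 and 0.00676).

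The response itself was compared between the lines by an interaction contrast, which subtracts the KH response from the DNMT3ABKO response. At 72 h no host passed, where 5.23% of all genes did (3.38% higher, 1.86% lower). An unadjusted p under 0.05 was held by 5 hosts and by 2856 of all 15727 genes. The 10 values ran from 0.045 to 0.37 with a median of 0.25, against 0.021 over all genes. At 144 h Gas5 passed (0.40, SE 0.096, adjusted p = 0.0307), 1 of 10 where 8.59% of all genes were called (4.89% higher, 3.70% lower), and the median was 0.23 against 0.010 over all genes. The 10 values share the 0 h libraries of DNMT3ABKO, and 4 of the hosts were low in 1 of them. Without that library the 72 h values of Snhg1, Snhg3 and Snhg6 were 0.056, 0.099 and -0.16, and without the other DNMT3ABKO 0 h library 5 hosts passed at 72 h and 6 at 144 h, all higher, where 13.9% and 16.5% of all genes were called higher. The Gas5 value at 144 h was 0.38 (adjusted p = 0.0313) without DNMT3ABKO 0 h replicate 1. It was lost without any of 9 other libraries (adjusted p from 0.0521 to 0.135), namely all 6 of KH, both of DNMT3ABKO at 72 h and DNMT3ABKO 144 h replicate 2, with values between 0.33 and 0.45, and with a replicate block (adjusted p = 0.0723).

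Across the 12 libraries the hosts fell into pairs that moved alike and pairs that did not. Over 45 pairs the median Pearson r of log2(TPM + 1) was 0.19, with 30 positive and 15 negative values. The highest were Snhg8 with Epb41l4aos (0.94), Snhg1 with Snhg3 (0.93) and Gas5 with Snhg12 (0.93), and the lowest was Snhg6 with Epb41l4aos (-0.63). All pairs share the same libraries and the same scaling to a fixed total, so these are descriptions. The 5 named genes outside the list whose course was most like the members' mean profile over the 12 libraries were Slc19a1, the reduced folate carrier (r = 0.91), Selenot, a selenoprotein of the endoplasmic reticulum (0.90), Fam222b (0.89), Snx5, a sorting nexin of endosomal transport (0.89), and Mtfr1l, a mitochondrial protein (0.88).

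The snoRNAs themselves were represented unevenly. The deposited rows held 33 snoRNA rows inside the 10 hosts, of which 9 had a mean of at least 1 TPM and 24 were lower, 18 of them below 0.1 TPM. Snora16a and Snord80 each had a pair of rows at 1 place. The 9 had a median length of 130 bases and the 24 a median of 76 bases. In these rows reads of a mature snoRNA cannot be told apart from reads of the unspliced host. Snora73a and Snora73b of Snhg3 were by far the highest (means 247 and 226 TPM), followed by Gm23639 of Epb41l4aos (44.4 TPM) and Snord87 of Snhg6 (22.1 TPM). The other 5 were Gm22357 of Gas5 (5.06 TPM), Snora74a of Snhg4 (3.15 TPM), Snord50b of Snhg5 (3.04 TPM), Snora61 of Snhg12 (1.70 TPM) and Snord22 of Snhg1 (1.06 TPM). Sequences of 4 of the nested rows (GRCm38 transcripts of GENCODE M21) are shown as examples of the rows described below. Capitals mark the C box and D box (TGATGA within 15 bases of the start and CTGA within 15 bases of the end, held by 20.2% of 1507 annotated snoRNA transcripts) or the ACA box (ACA within the last 8 bases, held by 46.9%), on the transcribed strand.
Snora73a (chr4:132352775-132352979, minus strand): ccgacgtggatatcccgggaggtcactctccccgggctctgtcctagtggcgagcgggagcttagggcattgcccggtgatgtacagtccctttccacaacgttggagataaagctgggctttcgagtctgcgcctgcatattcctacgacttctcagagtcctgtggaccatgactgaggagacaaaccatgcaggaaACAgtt
Snord87 (chr1:9942463-9942549, minus strand): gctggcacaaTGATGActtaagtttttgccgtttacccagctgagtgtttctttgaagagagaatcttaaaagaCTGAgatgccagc
Snord50b (chr9:88521797-88521868, minus strand): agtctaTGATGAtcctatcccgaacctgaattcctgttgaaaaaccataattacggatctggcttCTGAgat
Gm22357 (chr1:161036057-161036139, plus strand): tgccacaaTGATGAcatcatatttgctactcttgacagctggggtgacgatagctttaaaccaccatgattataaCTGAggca

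Snora73b was identical to Snora73a at 198 of 205 bases (96.6%), so reads from one can be assigned to the other and their values are uncertain. In KH, Snora73a read 287 and 199.5 TPM at 0 h, 234 and 318 TPM at 72 h and 244 and 205 TPM at 144 h. The paired values lay further apart than the means of the groups, and none of the 4 differences from 0 h in Snora73a was called (-0.097 to 0.21). For Snora73b the 144 h difference in KH was -0.40 (adjusted p = 0.0391) and the others were not called. That call was lost without any 1 of 7 libraries (adjusted p up to 0.316). Snord87 differed from 0 h by -0.083 and -0.18 in KH and by 0.38 (adjusted p = 0.0209) and 0.29 (adjusted p = 0.0642) in DNMT3ABKO, and the 72 h call was lost without DNMT3ABKO 0 h replicate 1 (0.30, adjusted p = 0.0952) or DNMT3ABKO 72 h replicate 2 (0.31, adjusted p = 0.133). Snord50b, inside Snhg5, was called lower at 72 h (-1.13, adjusted p = 0.0199) and 144 h (-1.04, adjusted p = 0.0257) in KH and at 144 h in DNMT3ABKO (-1.20, adjusted p = 0.0117), at levels of 1.03 to 6.14 TPM. Leaving out 1 library could end each of these 3 calls, and without DNMT3ABKO 0 h replicate 1 the DNMT3ABKO value was -0.96 (adjusted p = 0.0662).

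Gm22357, inside Gas5, read 2.01 and 2.97 TPM at 0 h, 6.72 and 7.35 TPM at 72 h and 5.08 and 6.69 TPM at 144 h in KH, with both treated groups above the untreated one. Its differences there were 1.22 (adjusted p = 0.0644) and 0.99 (adjusted p = 0.118). In DNMT3ABKO it read 0.020 and 3.13 TPM, then 9.16 and 7.07 TPM, then 4.54 and 6.01 TPM, and the value of 0.020 TPM came from the library that stood apart. The DNMT3ABKO differences of Gm22357 were 2.14 (adjusted p = 0.00422) and 1.60 (adjusted p = 0.0175), and without that library 1.13 (adjusted p = 0.00208) and 0.59 (adjusted p = 0.0448). The 144 h call was lost without DNMT3ABKO 144 h replicate 2 (adjusted p = 0.0916).

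Gm23639, inside Epb41l4aos, read 60.4 and 58.2 TPM at 0 h, 33.2 and 34.1 TPM at 72 h and 35.4 and 40.3 TPM at 144 h in KH. In DNMT3ABKO it read 63.9 and 49.5 TPM, then 38.2 and 40.3 TPM, then 40.2 and 39.0 TPM. All its treated libraries lay below the untreated ones of their line, as those of its host did. The differences of Gm23639 from 0 h were -0.80 and -0.63 in KH and -0.51 and -0.50 in DNMT3ABKO (adjusted p up to 0.00315), and the 4 calls held without any 1 library. Snora74a, inside Snhg4, was called higher at 72 h in KH (1.60, adjusted p = 0.0292) and in DNMT3ABKO (1.74, adjusted p = 0.0170), from levels of 0.014 to 7.65 TPM. The KH call of Snora74a was lost without KH 0 h replicate 2 (0.59, adjusted p = 0.199) or KH 72 h replicate 2 (adjusted p = 0.198), and that in DNMT3ABKO without any 1 of 3 libraries, DNMT3ABKO 0 h replicate 1 among them (adjusted p = 0.0511). Snora61 and Snord22 were not called in any of the 4 comparisons.

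Snhg3 lies on the same strand as Rcc1, the exchange factor of the Ran GTPase, and the annotated spans of the pair overlap, so reads in the shared stretch could be assigned to either. Rcc1 read 150 and 154 TPM in KH at 0 h, 88.3 and 86.6 TPM at 72 h and 89.3 and 91.3 TPM at 144 h. In DNMT3ABKO it read 137 and 133 TPM, then 68.0 and 72.0 TPM, then 72.3 and 70.9 TPM. All treated libraries of Rcc1 lay below the untreated ones, and its log2 differences from 0 h were -0.79 and -0.74 in KH and -0.93 and -0.90 in DNMT3ABKO, the largest adjusted p being 5.79e-06. For Snhg3 the same differences were 0.083 and -0.16 in KH and 0.45 and 0.23 in DNMT3ABKO. Snhg4 shares its strand with Gm28285 (mean 17.9 TPM), whose span overlaps most of it, and with the nested miRNA row Gm49347 (2.87 TPM), and neither was called against 0 h. Opposite-strand genes overlap Gas5 (Zbtb37, mean 4.11 TPM), Snhg3 (Gm17300, 35.4 TPM) and Snhg6 (Mcmdc2, 0.451 TPM, below the filter). Whether the counting used strand is not given in the sources used here. Against 0 h, Zbtb37 was called higher in DNMT3ABKO at 72 h (0.66, adjusted p = 0.00327) and 144 h (0.40, adjusted p = 0.0363), but not in KH. Gm17300 was called lower in KH at 144 h (-0.27, adjusted p = 0.0141) and in no other comparison with 0 h. Leaving out 1 library could end both 144 h calls. Without DNMT3ABKO 0 h replicate 1 the Zbtb37 values were 0.47 and 0.21.

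**Figure D3:**
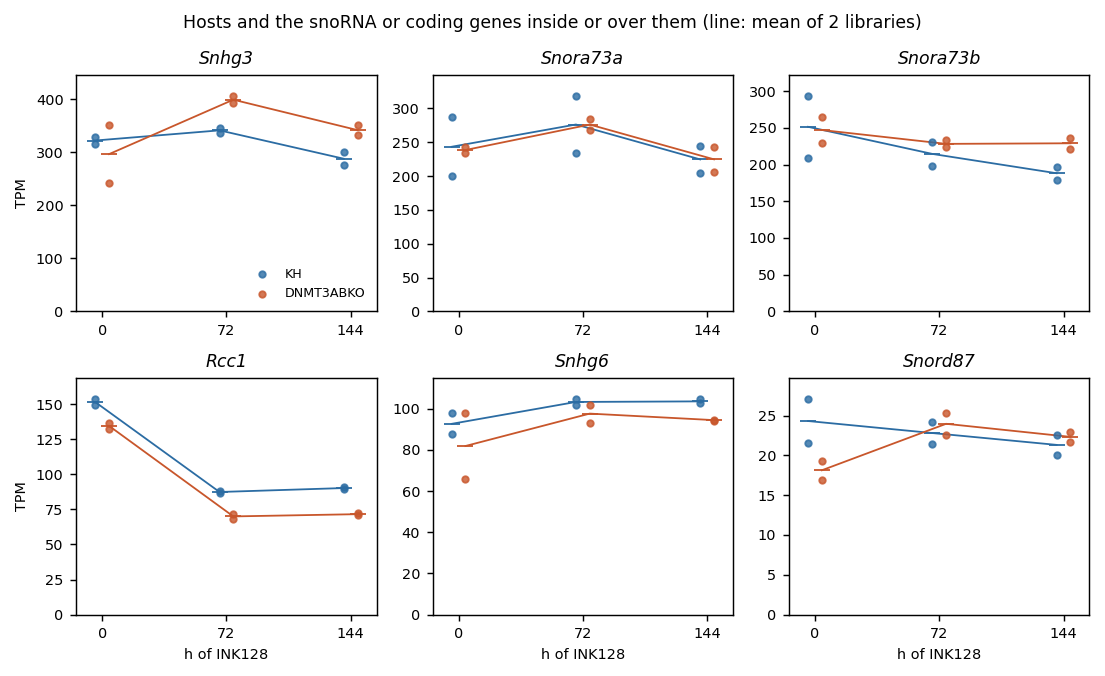
TPM (y axis, from 0) of Snhg3, its nested snoRNA rows Snora73a and Snora73b, the overlapping gene Rcc1, Snhg6 and its nested Snord87 against hours of INK128 in KH (blue) and DNMT3ABKO (orange); points are libraries and lines join means of 2. Rcc1 fell from 133–154 TPM untreated to 68.0–91.3 TPM under mTORi, while Snhg3 ran from 241 to 406 TPM over all libraries.

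The other noncoding snoRNA hosts gave a further view of the class. Of 11 listed genes 9 were tested, and against 0 h the numbers called higher and lower were 3 and 2 in KH at 72 h, 1 and 4 in KH at 144 h, 6 and 1 in DNMT3ABKO at 72 h and 4 and 2 in DNMT3ABKO at 144 h. Their medians were 0.019, -0.19, 0.31 and 0.18, beside the members' 0.064, -0.15, 0.21 and 0.071. Snhg20 rose in all 4 comparisons (0.42, 0.26, 0.51 and 0.27) and Snhg18 fell in all 4 (-0.55, -0.83, -0.67 and -1.36). Snhg14, the host at the imprinted Prader-Willi locus, had differences of -0.044 and 0.16 in KH and rose by 0.55 and 0.98 in DNMT3ABKO. With DNMT3ABKO 0 h replicate 1 left out, the DNMT3ABKO counts were 2 and 1 at 72 h and 3 and 2 at 144 h, with medians of 0.23 and 0.17, and the 72 h value of Snhg14 was 0.19 (adjusted p = 0.258).

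The coding snoRNA hosts, 36 genes that mostly encode ribosomal proteins and translation factors and include many TOP mRNAs, rose more often than they fell. In KH 13 rose and 3 fell by 72 h, while 19 rose and 1 fell by 144 h. In DNMT3ABKO 17 rose and 2 fell by 72 h, while 20 rose and 1 fell by 144 h. Over all genes the shares rising and falling were 28.3 and 19.5%, then 27.4 and 23.9%, in KH, and 34.3 and 21.6%, then 31.4 and 26.2%, in DNMT3ABKO. They are the background of the other list counts too, but only where no library was left out. The medians of the coding hosts were 0.16, 0.22, 0.19 and 0.21, against 0.077, 0.049, 0.12 and 0.054 over all genes. With DNMT3ABKO 0 h replicate 1 left out, the median of all genes in DNMT3ABKO was 0.042 at 72 h and -0.014 at 144 h. Without DNMT3ABKO 0 h replicate 1 the DNMT3ABKO counts were 15 and 2, then 21 and 1, with medians of 0.13 and 0.20. Eif4a2, an RNA helicase of translation initiation, rose in all 4 (0.64, 0.52, 0.63 and 0.57), as did Rpl12, a protein of the large ribosomal subunit (0.41, 0.36, 0.49 and 0.52), while Hspa9, the mitochondrial heat shock chaperone, fell in all 4 (-0.48, -0.29, -0.31 and -0.17).

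Proteins that bind and mature snoRNAs were called in small numbers: of 18 genes 2 were higher and 3 lower in KH at 72 h, 1 and 4 in KH at 144 h, 3 and 3 in DNMT3ABKO at 72 h and 4 and 3 in DNMT3ABKO at 144 h. The catalytic subunits did not pass in any of the 4, with Fbl, the methyltransferase of C/D particles, between -0.17 and -0.13 and Dkc1, the pseudouridine synthase of H/ACA particles, between 0.13 and 0.16. Nhp2, an H/ACA core protein, fell by 0.59, 0.51, 0.27 and 0.19, and Ruvbl1, an ATPase of particle assembly, fell by 0.44, 0.40, 0.53 and 0.44. Nop56, a C/D core protein and itself a snoRNA host, rose by 0.36 in KH and by 0.50 in DNMT3ABKO at 72 h. Without DNMT3ABKO 0 h replicate 1 the DNMT3ABKO counts were 3 and 4 at both times, and the uncalled values there turned sign, to 0.029 and 0.012 for Fbl and -0.068 and -0.038 for Dkc1.

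Among 20 NMD factors, 4 were higher and 2 lower in KH at 72 h, 8 and 2 in KH at 144 h, 6 and 2 in DNMT3ABKO at 72 h and 9 and 4 in DNMT3ABKO at 144 h, with medians of 0.15, 0.14, 0.15 and 0.21. Smg6, the endonuclease that cuts NMD targets, rose in all 4 (0.51, 0.62, 0.52 and 0.68), as did Xrn1, the exonuclease that clears the fragments (0.44, 0.75, 0.49 and 0.63). Smg1, the kinase of Upf1, rose in 3 of the 4 (0.70 in KH at 144 h, 0.56 and 0.55 in DNMT3ABKO), and Upf1, the central helicase, rose at 144 h in both lines (0.20 and 0.19). The DNMT3ABKO counts without DNMT3ABKO 0 h replicate 1 were 2 and 4, then 7 and 2, with medians of 0.053 and 0.032, and the calls on Xrn1 at 72 h (0.25, adjusted p = 0.0849) and Upf1 at 144 h (0.15, adjusted p = 0.0839) were lost. Magohb, a protein of the exon junction complex, fell in KH (-0.94 and -0.95) and had -0.22 at both times in DNMT3ABKO.

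Of 12 mRNAs described as NMD targets, 3 were higher and 6 lower in KH at 72 h, 4 and 7 in KH at 144 h, 4 and 6 in DNMT3ABKO at 72 h and 4 and 7 in DNMT3ABKO at 144 h, with medians of -0.29, -0.62, -0.31 and -0.74. Several of them are also known as stress-response genes. Trib3, a pseudokinase induced by amino acid shortage, fell in all 4 (-1.71, -1.64, -1.91 and -1.88), and Cdkn1a, the cell cycle inhibitor p21, fell in all 4 (-1.16, -1.90, -1.42 and -1.82). Gadd45a, a DNA damage response gene, rose in all 4 (1.08, 0.69, 1.11 and 0.77). The DNMT3ABKO counts became, with DNMT3ABKO 0 h replicate 1 left out, 4 and 5, then 5 and 7, with medians of -0.26 and -0.68.

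Of 16 genes for TOP mRNA binding and translation control under mTOR complex 1, 4 were higher and 4 lower in KH at 72 h, 6 and 5 in KH at 144 h, 7 and 1 in DNMT3ABKO at 72 h and 5 and 2 in DNMT3ABKO at 144 h. Mtor itself rose in all 4 (0.61, 0.67, 0.78 and 0.86) and Eif4ebp1, the translational repressor that mTOR inactivates, fell in all 4 (-1.08, -0.63, -0.74 and -0.54). Larp1 fell at 144 h in KH (-0.21, adjusted p = 0.0377) and in DNMT3ABKO (-0.28, adjusted p = 0.00878), and had -0.13 and 0.19 at 72 h. Pabpc1, the poly(A) binding protein, fell in KH (-0.42 and -0.49) and had -0.10 and 0.024 in DNMT3ABKO. In DNMT3ABKO the counts without 0 h replicate 1 were 5 and 3, then 4 and 4, with medians of 0.042 and 0.0094 in place of 0.27 and 0.18.

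**Figure D4:**
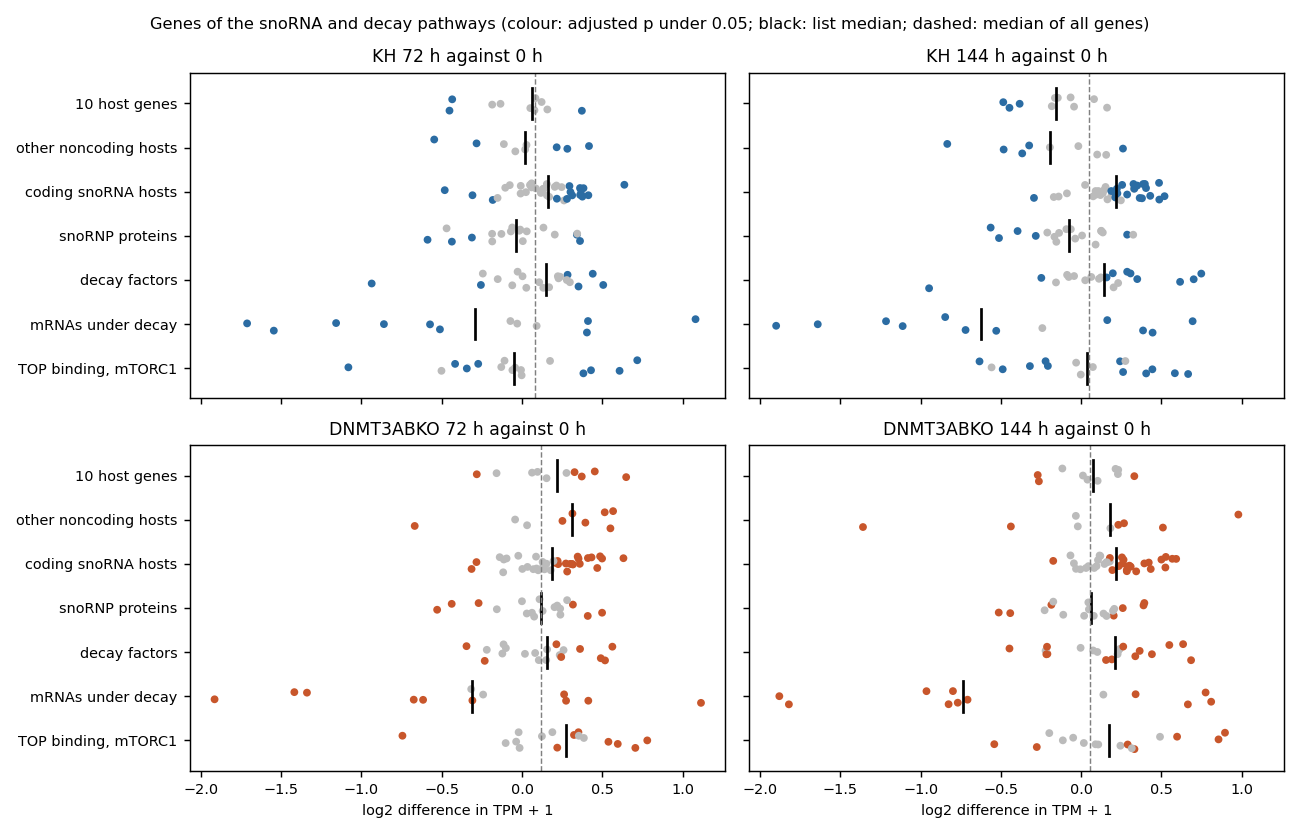
Log2 difference in TPM + 1 from 0 h (x axis) of each tested gene in 7 lists (rows), 1 panel per line and time; coloured points passed the threshold, black bars are list medians and the dashed line is the median of all genes. The coding snoRNA hosts sit mostly to the right (medians 0.16 to 0.22), and the mRNAs under decay spread widest.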

How the data were processed

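RNA was measured in 12 libraries of total RNA after ribosomal RNA depletion, with ERCC spike-in added. Per the submitters' processing notes, the authors trimmed reads with cutadapt 2.4, aligned them to mm10 with STAR 2.7.3a and used StringTie 2.0. The study's methods name GENCODE VM19 and later releases of STAR and StringTie than those notes. Gene levels were deposited in TPM, 1 file per library, each summing to 1000000. No spike-in row was used here, so values are relative shares, and TPM keeps no depth, so library depth is unknown here, without counting intervals. Repeated identifiers, 9 to 16 rows per file, were summed. The count test of the study's methods does not apply to TPM. Instead, log2(TPM + 1) of genes that averaged 1 TPM or more was fitted with limma 3.58.1 in R 4.3.3 (lmFit, contrasts.fit, eBayes with trend) on all 6 groups without covariates. There were 11 contrasts, with 0.05 as the limit of the Benjamini-Hochberg adjusted p. A fold change on this scale understates the change of low genes.

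Members, gene lists and tests were chosen with earlier results of these data known. From each list come up to 3 called genes at either end of the log2 difference, plus Upf1, Smg1, Larp1, Fbl and Dkc1. Overlapping genes, and nested snoRNA and miRNA rows with a mean of at least 1 TPM, were named from the deposited coordinates (mm10, counted from 1), and annotation came from GENCODE M21, which gave 53492 of 54409 matched identifiers the same coordinates. KH 72 h against 0 h was simulated with 15727 genes. Of these, 100 changed by 0.3 and 100 by 1 on the log2 scale, and 5% and 72% of them were recovered. Unchanged genes made up 7.23% of the 83 calls. In the data 47.8% of all genes were called, which makes the adjusted threshold less strict, so these recoveries do not carry over. Alternatives were another pseudocount (0.1 TPM), no filter, median-ratio rescaling, rows under 400 bases left out, a fit on the compared groups alone, a replicate block, a minimum fold and leaving out each library. Leaving out libraries was extended to the gene lists and nested rows after seeing the data. The study states that a replicate's time points were handled side by side, without naming these libraries, so the block was read as a possible pairing. Same-numbered libraries correlated from -0.10 to 0.10 in their deviations from the group means.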

Additional observations from a re-analysis of the deposited data

Results flagged for a closer look

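The response of Gas5 to 144 h of mTORi differed between the lines in a test of the difference itself. Its log2 difference from 0 h was 0.33 in DNMT3ABKO and -0.066 in KH, a gap of 0.40 (SE 0.096, limma adjusted p = 0.0307). Both DNMT3ABKO libraries at 144 h lay above both 0 h libraries of that line, and in KH the 0 and 144 h libraries overlapped. Over its alternatives other than a minimum fold the adjusted p ran up to 0.135, and the call was lost without any of 9 single libraries and with the replicate block (adjusted p = 0.0723).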

How the results depend on the processing

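Of 110 member values, 22 were called. Of these, 22 were kept with a pseudocount of 0.1 TPM and with rows under 400 bases left out, 21 after median-ratio rescaling, 20 without a filter, 20 with the replicate block, 16 in a fit on the compared groups alone and 229 of 264 over the 12 fits that left out a library. No called value changed sign. Requiring an absolute log2 fold change of 1 left 0 calls in every contrast that had any. The cause of these changes was not tested.

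The number of members called became 1 for DNMT3ABKO against KH at 0 h (Snhg4) with the pseudocount of 0.1 TPM, the median-ratio scale, rows under 400 bases left out or the replicate block. At 72 h it became 1 with median ratios or short rows left out, and 4 with the compared groups alone. For DNMT3ABKO 72 h against 0 h it became 3 without a filter and 2 with the compared groups alone, and for DNMT3ABKO 144 h against 0 h 1 with the compared groups alone. For KH at 72 h and at 144 h it became 5 with median ratios, where 52.0% and 55.5% of all genes were called. The other counts of this paragraph stand without that share and do not set the members apart from all genes. The Gas5 line difference at 144 h went to 0 calls with the compared groups alone (adjusted p = 0.103) and with the replicate block (adjusted p = 0.0723). The block also lost Snhg8 in DNMT3ABKO against KH at 144 h (adjusted p = 0.0814) and changed no other host call.

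The counts of members in this paragraph stand without the share of all genes called in each fit, and do not set the members apart from all genes. With 1 library left out, its partner was taken to vary like the other groups. The members called then ran from 3 to 4 (KH 72 h against 0 h), 3 to 6 (KH 144 h against 0 h), 1 to 4 (KH 144 h against 72 h), 3 to 8 (DNMT3ABKO 72 h against 0 h), 2 to 6 (DNMT3ABKO 144 h against 0 h), 0 to 3 (DNMT3ABKO 144 h against 72 h), 0 to 4, 0 to 3 and 0 to 4 (DNMT3ABKO against KH at 0, 72 and 144 h), and 0 to 5 and 0 to 6 (line difference at 72 and 144 h). Of 25 uncalled values that changed sign, 17 stayed between -0.13 and 0.17 and were not called under any setting. The other 8 were, in DNMT3ABKO, Snhg6 at 72 h (-0.0029 to 0.56) and 144 h (-0.048 to 0.51) and Snhg3 at 144 h (-0.042 to 0.50). Between lines at 0 h they were Snhg1 (-0.36 to 0.029), Snhg3 (-0.41 to 0.13) and Snhg6 (-0.48 to 0.078), and in the line difference Snhg6 at 72 h (-0.16 to 0.40) and 144 h (-0.21 to 0.35). After median-ratio rescaling, the genes called higher and lower went from 4447 and 3073 to 3791 and 4385 (KH 72 h), from 5397 and 3403 to 4478 and 4746 (DNMT3ABKO 72 h), from 1139 and 2458 to 1936 and 2471 (KH 144 h against 72 h), from 1385 and 2904 to 2491 and 2747 (DNMT3ABKO 144 h against 72 h) and from 1727 and 2439 to 2535 and 2408 (DNMT3ABKO against KH at 144 h).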
